A study of Arabidopsis thaliana with 6 samples.

Results

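The 7 genes of the Arabidopsis thaliana HRS1 and HHO family were followed through callus culture by bulk RNA sequencing. They were chosen by locus identifier, as HRS1 (AT1G13300), HHO1 (AT3G25790), HHO2 (AT1G68670), HHO3 (AT1G25550), HHO4 (AT2G03500, also named EFM), HHO5 (AT4G37180) and HHO6 (AT1G49560), and all 7 were present among 36793 loci. Callus, the proliferating tissue that grows from wounded plant organs on hormone medium, came from leaves cut from 2-week-old seedlings of the laboratory strain Col-0. It was sampled as 3 biological replicates on day 7 and 3 on day 12 of culture on callus-inducing medium. All groups shared the strain, the explant and the medium, and no leaf before culture was analysed here. Nothing in the labels says whether replicates came from separate plates, so SDs measure the spread between these samples only. SEs of changes come from a fit over all genes tested, which shares variance estimates between genes. Total counts per library ran from 4927953 to 10746277. The family was proposed with the difference between the days already known. The day 12 against day 7 values of the 7 genes are therefore given as descriptions, with standard errors and without p-values. The gene lists set beside the family were also chosen with earlier results of these data known. Their counts and adjusted p-values are therefore descriptions too, not independent tests.

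The HRS1 and HHO proteins belong to the GARP class of Myb-related transcription factors and act as repressors. HRS1, HHO1, HHO2 and HHO3 are also known as the NIGT1 genes. Nitrate induces them through NIN-like proteins (NLP), the phosphate starvation regulator PHR1 also activates them, and their products repress genes of nitrate uptake, SPX genes of phosphate sensing and the NIGT1 genes themselves. In roots they tie the response to phosphate shortage to the nitrogen supply. HHO4 represses the flowering gene FT together with the histone demethylase JMJ30, and HHO5 is known from flower development as a partner of ULT1.

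By scaled counts the NIGT1 genes stood higher in every day 12 library than in any day 7 library, as did 21.2% of all genes tested. In either direction 43.7% of genes tested had no overlap between the days. HHO3 did overlap in the deposited TPM (transcripts per 1000000), and HHO4, HHO5 and HHO6 overlapped by scaled counts. HHO1 went from near the detection limit to a mean of 5.51 CPM (counts per 1000000), 16.0-fold by the fitted change. HRS1 was 2.97-fold higher, HHO2 2.27-fold and HHO3 1.78-fold, whereas the fitted ratios of HHO5, HHO4 and HHO6 were 1.34, 0.867 and 0.838. HHO3 and HHO2 were the most abundant transcripts of the family on day 12. HHO6 no longer stood beside HHO3, though its own values overlapped between the days.

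The stretches upstream of the genes are shown first, because the NIGT1 genes shared a short sequence there. The palindrome GAATATTC is a binding sequence known for NIGT1 proteins, and it is also one spelling of GNATATNC, the PHR1 binding site, so every match of the first is a match of the second. Within 1000 bases before the annotated gene start, GAATATTC occurred once in each of HRS1, HHO1, HHO2 and HHO3 and not in HHO4, HHO5 or HHO6. It occurred in 775 of the 27443 windows of that length before protein-coding nuclear genes, or 2.82%. The 60 bases around each match follow, from RefSeq assembly TAIR10.1, all on the plus strand and 5′ to 3′, with matches to GAATATTC and to the shorter NIGT1 motif GAATC in capitals.
HRS1 (chr1:4556614-4556673): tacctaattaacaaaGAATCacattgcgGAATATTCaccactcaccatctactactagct
HHO1 (chr3:9412886-9412945): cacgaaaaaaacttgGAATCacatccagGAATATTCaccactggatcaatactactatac
HHO2 (chr1:25781424-25781483): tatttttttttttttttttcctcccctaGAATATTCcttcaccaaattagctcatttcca
HHO3 (chr1:8975961-8976020): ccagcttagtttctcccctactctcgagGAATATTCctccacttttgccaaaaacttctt

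HRS1 and HHO1 matched at 39 of these 60 bases, including the GAATC at the same distance from the palindrome. HHO2 and HHO3 matched at 28, and the other 4 pairs at 19 to 23. The windows were aligned on the palindrome, so its 8 bases match in every pair by construction. The palindrome began 236 bases before the start of HRS1, 138 before HHO1, 349 before HHO2 and 337 before HHO3. No other annotated gene lay within these windows.

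The 250 bases directly before HHO1 and HRS1, the pair with the largest fitted changes, are printed in full because HHO1 held 3 matches to GNATATNC there. Capitals mark GNATATNC and GAATC on either strand.
HHO1 (chr3:9412802-9413051, plus strand): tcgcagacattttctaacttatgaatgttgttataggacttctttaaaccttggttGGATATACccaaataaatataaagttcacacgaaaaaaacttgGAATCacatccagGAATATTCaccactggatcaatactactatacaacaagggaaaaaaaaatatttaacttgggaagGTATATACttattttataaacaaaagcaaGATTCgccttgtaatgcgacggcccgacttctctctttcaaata
HRS1 (chr1:4556628-4556877, plus strand): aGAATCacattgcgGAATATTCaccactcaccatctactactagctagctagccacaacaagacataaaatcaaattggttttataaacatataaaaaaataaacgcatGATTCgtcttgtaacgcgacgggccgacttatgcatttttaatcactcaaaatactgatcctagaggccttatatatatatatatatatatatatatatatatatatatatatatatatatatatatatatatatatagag

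The longest run shared by this pair was ggaatattcaccact, 15 bases, against 7 to 11 bases for any other pair of the 7 genes over the same windows. In the 250-base windows GNATATNC was found in HRS1, HHO1 and HHO3, and in 5.46% of all such windows. Over 1000 bases it was found in the 4 NIGT1 genes and in 20.3% of windows. GAATC was present within 1000 bases of every member except HHO6, but 87.8% of all windows of that length held it. A match describes the letters only, and binding was not measured.

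**Figure D1:**
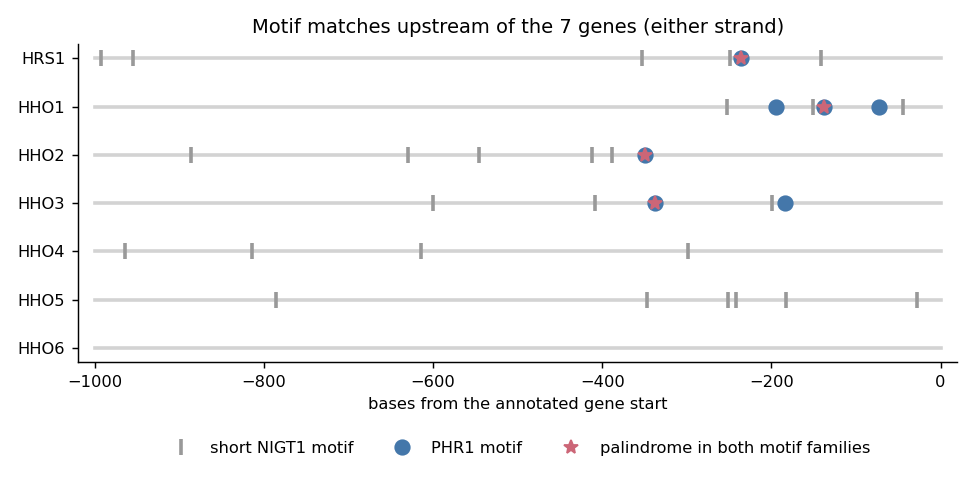
Matches to 3 motifs in the 1000 bases before the annotated start of each of the 7 genes (rows), on either strand. The star, a palindrome that fits the motifs of NIGT1 proteins and of PHR1, appears once in each of HRS1, HHO1, HHO2 and HHO3 and in no other row. Circles mark GNATATNC and grey bars GAATC.

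Values per library are CPM scaled by TMM (trimmed mean of M-values) factors. Changes come from a fit over all 18364 genes that passed a count filter, all 7 members among them. HHO1 passed that filter only through its day 12 libraries, where it was high. HHO1 had 1, 4 and 4 counts in day 7 replicates 1, 2 and 3, and 34, 57 and 36 counts in day 12 replicates 1, 2 and 3. In CPM these were 0.136, 0.359 and 0.443 on day 7 and 3.47, 5.45 and 7.62 on day 12. The lowest day 12 library thus lay far above the highest day 7 library. The ratio of the summed counts was 15.5, with an exact 95% counting interval from 7.93 to 34.8 that covers counting error only. The fitted log2 change was 4.002 ± 0.51 (SE, n = 3 per day), which exceeded that of 99.7% of the genes tested. Day 7 expression was close to the floor, since 3 counts stand for 0.269 to 0.635 scaled CPM in these libraries.

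HRS1, known for the shortening of the primary root at low phosphate when overexpressed, stood at 2.99, 5.12 and 1.22 CPM in the day 7 libraries and at 7.65, 13.1 and 7.20 CPM in the day 12 libraries. The groups did not overlap, but replicate 2 was the highest library on each day and day 7 replicate 3 the lowest of all. The day 7 mean was 3.11 ± 1.95 CPM and the day 12 mean 9.31 ± 3.28 CPM (SD, n = 3), and the log2 change was 1.57 ± 0.47 (SE). That change was 2.18 when day 7 replicate 2 was left out, 1.19 when the low day 7 library was left out and 1.23 when the high day 12 library was left out.

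HHO2 stood at 31.6, 41.4 and 54.8 CPM on day 7 and at 83.6, 114 and 93.2 CPM on day 12. All day 12 libraries were above all day 7 libraries, by at least the width of the day 7 spread. The means were 42.6 ± 11.7 and 97.0 ± 15.7 CPM, and the log2 change was 1.18 ± 0.21. HHO3 stood at 58.4, 83.3 and 59.9 CPM on day 7 and at 103, 152 and 103 CPM on day 12. Replicate 2 was again the highest on each day, and the groups did not overlap. The means were 67.2 ± 14.0 and 119 ± 28.04 CPM, with a log2 change of 0.83 ± 0.20.

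In the remaining members the libraries of the days overlapped. HHO5 stood at 24.9, 28.3 and 33.5 CPM on day 7 and at 33.2, 40.4 and 43.6 CPM on day 12. The groups overlapped through day 7 replicate 3 and day 12 replicate 1, and the log2 change was 0.43 ± 0.15. HHO6 stood at 56.0, 60.9 and 61.2 CPM on day 7 and at 51.6, 40.2 and 58.4 CPM on day 12. Its highest day 12 library was within the day 7 range, and the log2 change was -0.26 ± 0.14. HHO4 stood at 1.90, 2.96 and 2.43 CPM on day 7 and at 1.73, 2.67 and 1.91 CPM on day 12. Those ranges overlapped from 1.90 to 2.67 CPM. The log2 change was -0.21 ± 0.36, and it was 0.02 on log2(TPM + 1), so no direction can be given for HHO4.

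**Figure D2:**
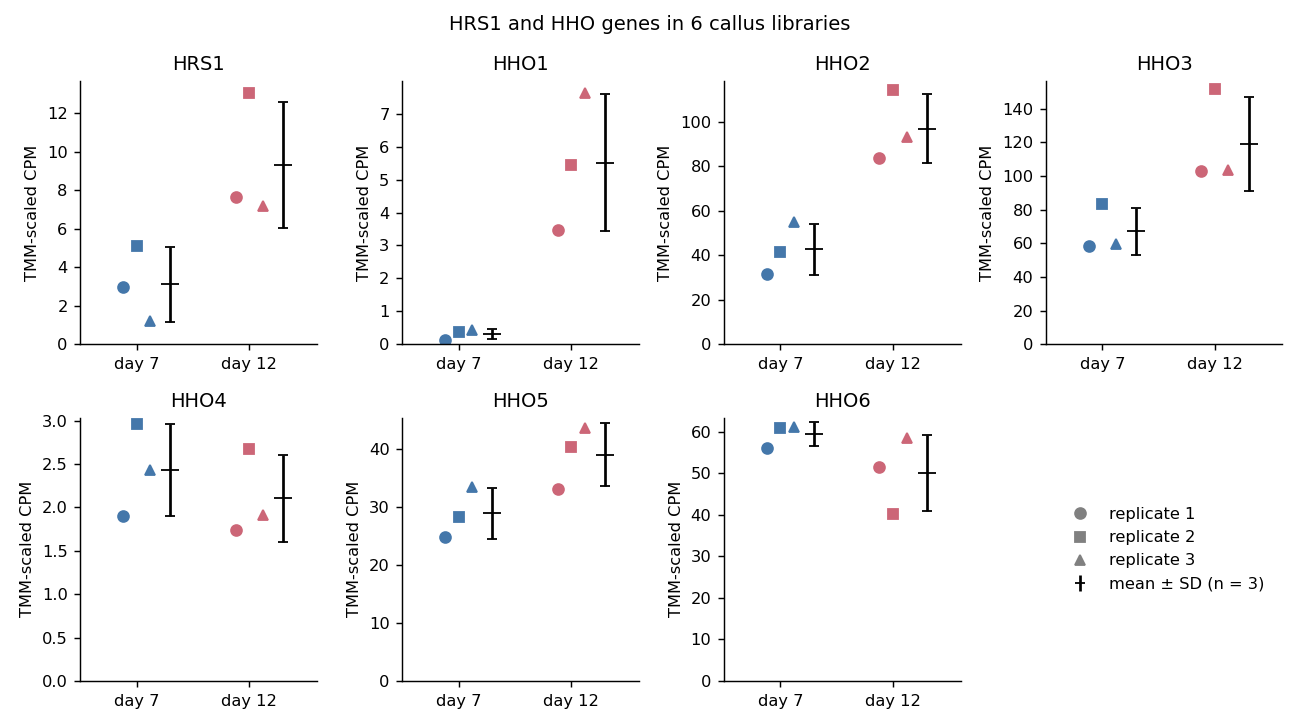
TMM-scaled CPM (y axis, linear from 0, its own scale in each panel) of each gene in the 3 day 7 and 3 day 12 libraries, with marker shape for the replicate number and black bars for the mean ± SD. For HRS1, HHO1, HHO2 and HHO3 every day 12 point lies above every day 7 point, and for HHO4, HHO5 and HHO6 the days overlap.

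HRS1, HHO1, HHO2 and HHO3, 4 of the 7 members, passed an adjusted p of 0.05 in edgeR's quasi-likelihood test, all higher on day 12, where 25.1% of all tested genes passed and 12.7% passed in the upward direction. The day 12 libraries lay wholly above day 7 for the same 4 members and for 21.2% of tested genes, and 43.7% of tested genes had no overlap in either direction. Since this contrast was known when the family was chosen, and HHO1 passed the count filter only through day 12, these counts are only a description. With the replicate number as a block, 5 members passed, HHO5 being the fifth, against 28.1% of genes. HHO5 also passed when day 7 replicate 3 or day 12 replicate 1 was dropped (log2 change 0.54 each). HRS1 kept its call only with day 7 replicate 2 left out, since dropping any other library ended it, at log2 changes of 1.19 to 1.72. HHO3 failed the threshold when day 7 replicate 1 (0.73) or 3 (0.75) was dropped, and on log2(TPM + 1) (0.91). The calls of HHO1 and HHO2 held whichever library was left out, with log2 changes of 3.72 to 4.28 and 1.01 to 1.40.

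**Figure D3:**
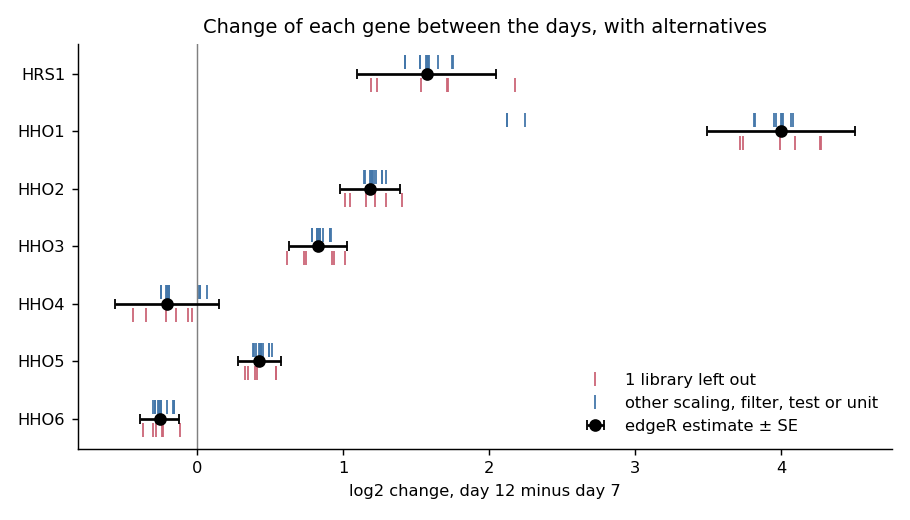
Log2 change, day 12 minus day 7, of each gene (black point, bar ± SE), with the estimates after leaving out each library (red ticks) and under other scalings, filters, tests or units (blue ticks). The estimates of HRS1, HHO1, HHO2 and HHO3 stay above 0 throughout, HHO4 straddles 0, and the low blue ticks of HHO1 are those with a pseudocount of 1 TPM.

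Levels of different members were compared in the deposited TPM values, which allow for transcript length. On day 7 the order was HHO3 (50.2 ± 19.2 TPM), HHO6 (46.3 ± 10.5), HHO2 (29.8 ± 11.2), HHO5 (23.1 ± 6.95), HRS1 (3.1 ± 2.25), HHO4 (1.42 ± 0.70) and HHO1 (0.223 ± 0.110). The ranges of neighbours overlapped except between HHO5 and HRS1 and between HHO4 and HHO1. HHO3 exceeded HHO6 in 1 of 3 day 7 libraries, so these genes were not separated. On day 12 the order was HHO3 (93.9 ± 30.9 TPM), HHO2 (70.4 ± 16.9), HHO6 (40.7 ± 3.72), HHO5 (32.0 ± 4.46), HRS1 (9.51 ± 4.36), HHO1 (4.51 ± 1.72) and HHO4 (1.40 ± 0.45). There HHO3 and HHO2 overlapped, as did HHO6 and HHO5, and all other neighbours were apart. HHO1 thus passed HHO4 between the days, and HHO2 passed HHO6.

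Deposited TPM depended on ribosomal RNA, because 4 rRNA loci held 1.67% of the TPM in day 7 replicate 2 and 30.7% in day 7 replicate 1. Shares of the family total are free of that scaling. HHO6 held 33.1%, 28.7% and 29.7% of the summed TPM of the 7 genes in day 7 replicates 1, 2 and 3, and 19.1%, 11.6% and 19.5% in day 12 replicates 1, 2 and 3. Its share was lower in every day 12 library. HHO2 held 16.5%, 16.9% and 24.02% on day 7 and 27.3%, 28.7% and 27.4% on day 12. The 4 NIGT1 genes together held 53.6% ± 2.76 on day 7 and 69.9% ± 5.57 on day 12, without overlap, while the ranges of HHO3, HHO5 and HRS1 taken singly overlapped. With the rRNA loci left out, the summed TPM of the family was 178 ± 23.4 on day 7 and 286 ± 35.8 on day 12. On that scale HHO3 no longer overlapped between the days, with at most 72.8 TPM on day 7 and at least 89.0 on day 12. HHO5 reached 31.52 TPM on day 7 and began at 31.53 on day 12. The share of HHO4 in the family, 0.878% ± 0.213 on day 7 and 0.548% ± 0.0571 on day 12, was higher in every day 7 library. A share also falls when other members rise, and the level of HHO4 itself was 1.42 TPM on day 7 and 1.40 TPM on day 12.

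**Figure D4:**
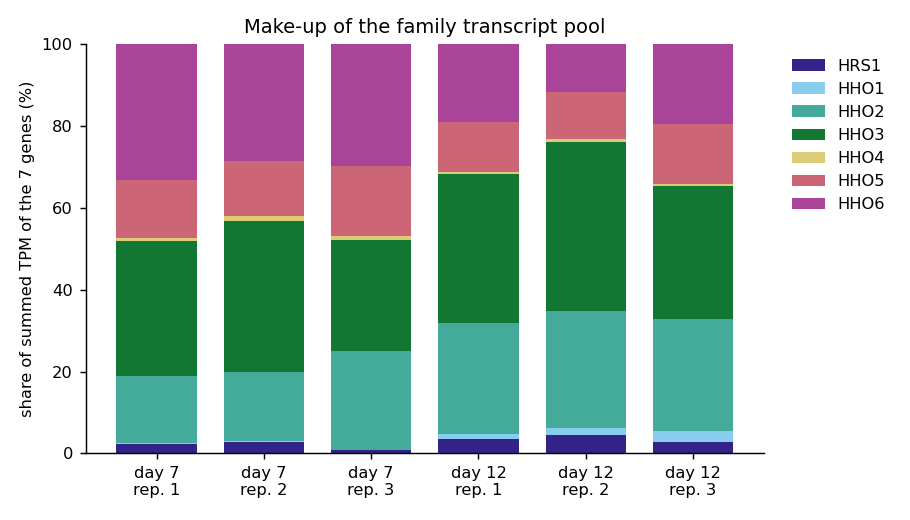
Share of the summed TPM of the 7 genes (y axis, percent) held by each gene in each of the 6 libraries. The HHO6 segment shrinks from 28.7% to 33.1% on day 7 to 11.6% to 19.5% on day 12, and the HHO1 segment is too thin to see on day 7.

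Libraries of 1 day also differed from each other in a way that several members shared. Day 7 replicate 1 was the lowest day 7 library for every member except HRS1. Day 12 replicate 2 was the highest day 12 library for HRS1, HHO2, HHO3 and HHO4, at 0.25 to 0.49 above the day mean of log2(CPM + 1), and the lowest for HHO6, at -0.29. The part of rRNA content or of any single library in these deviations was not tested.

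The 15370 other tested genes with a mean of at least 5 CPM were ranked by the root mean square difference of log2(CPM + 1) from each member over the 6 libraries, after each gene was centred on its own mean. The value is read against a member's own root mean square deviation from its mean, which was 1.17 for HHO1, 0.86 for HRS1, 0.65 for HHO2, 0.48 for HHO3, 0.27 for HHO5, 0.21 for HHO6 and 0.20 for HHO4. Nearest to HHO2 were AT3G07350 (0.04) and AT4G00500 (0.10), and nearest to HHO3 were AT1G59780 (0.06) and AT1G10140 (0.09). HHO1 was nearest to the ATPase gene DAA1 (AT1G64110, 0.18) and the raffinose synthase family gene SIP1 (AT1G55740, 0.21). The fitted log2 changes of these genes were 3.32 and 2.18, against 4.002 for HHO1. HHO1 lay at 0.136 to 0.443 CPM on day 7, so the 1 CPM added to each value compresses its rise in all these differences. HRS1 was nearest to the lectin gene JAL23 (AT2G39330, 0.24) and TBL40 (AT2G31110, 0.26). HHO4 was nearest to AT5G56590 (0.04) and GATA5 (AT5G66320, 0.06), HHO5 to the autophagy gene ATG18B (AT4G30510, 0.04) and AT1G15400 (0.05), and HHO6 to AT3G59490 (0.03) and AT2G28600 (0.04). HHO4 had only 9 to 33 counts per library, so its small deviation and its matches include counting error. Among the members, HHO2 and HHO3 differed by 0.34, less than the deviation of either, and HHO1 and HHO6 were the farthest apart (1.29). A difference below the deviation of either gene was also seen for HRS1 with HHO1 (0.74), HHO2 (0.61) and HHO3 (0.44). It was seen for HHO1 with HHO2 (0.61) too, but not for HHO1 with HHO3 (0.81). HHO4 and HHO6 differed by 0.30, more than the deviation of either, so that low value comes from 2 flat profiles and not from a like shape.

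Of the regulators upstream of the family, 4 of 10 tested genes rose and 0 fell, beside 12.7% higher and 12.5% lower over all genes tested, with a median log2 change of 0.39 against -0.00 over all genes. All 4 encode NIN-like proteins, which carry the nitrate signal to the NIGT1 genes and made up 7 of the 10 tested, and NLP1, NLP4 and NLP5 did not pass (adjusted p = 0.115, 0.342 and 0.661). NLP7 (AT4G24020), the best known of them in nitrate sensing, rose from 30.3 ± 2.51 to 45.03 ± 3.78 CPM (log2 change 0.58 ± 0.11, adjusted p = 0.00782). NLP2 (AT4G35270) rose by 0.96 ± 0.18 (adjusted p = 0.00707). NLP6 (AT1G64530) rose by 0.59 ± 0.17 (adjusted p = 0.0346) and NLP8 (AT2G43500), known from nitrate-promoted germination, by 0.54 ± 0.15 (adjusted p = 0.0276). NLP6 failed when day 7 replicate 1 or 3 or any single day 12 library was dropped (adjusted p = 0.0713 to 0.122). For NLP8 this held of replicates 1 and 2 of each day (adjusted p = 0.0544 to 0.0937). All 4 NLP calls were lost on log2(TPM + 1), at log2 changes of 0.51 to 0.83, and NLP2 (adjusted p = 0.0288) and NLP7 (adjusted p = 0.0224) passed on that scale once rRNA loci were left out. PHR1 (AT4G28610) stood at 48.3 ± 5.63 and 53.9 ± 6.10 CPM and did not pass (adjusted p = 0.395). The nitrate transporter and sensor gene NRT1.1 (AT1G12110) stood at 77.4 ± 22.9 and 120 ± 29.6 CPM (adjusted p = 0.132) and passed with the replicate block (adjusted p = 0.00586).

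Among genes of the nitrate response 4 of 16 rose and 1 fell, a share near the 25.1% of all tested genes that passed in either direction, with a median log2 change of 0.14. The nitrate reductase gene NIA1 (AT1G77760) rose from 142 ± 36.3 to 281 ± 55.1 CPM (log2 change 0.98 ± 0.22, adjusted p = 0.0169). TGA1 (AT5G65210), a bZIP regulator of nitrate-responsive root growth, rose by 1.24 ± 0.26 (adjusted p = 0.0121), and LBD38 (AT3G49940), another nitrate-induced repressor, by 0.83 ± 0.18 (adjusted p = 0.0118). CIPK23 (AT1G30270), the kinase that phosphorylates NRT1.1, rose by 0.50 ± 0.12 (adjusted p = 0.0180). RFNR1 (AT4G05390), a root ferredoxin reductase gene, fell by 0.31 ± 0.09 (adjusted p = 0.0405). The other nitrate reductase gene NIA2 (AT1G37130), with 868 ± 56.9 and 1153 ± 212 CPM, did not pass (adjusted p = 0.0544, and 0.0275 with the block). NIA1 failed when replicate 1 of either day or day 12 replicate 2 was dropped (adjusted p = 0.0617 to 0.0752). CIPK23 failed when replicate 1 of either day or day 7 replicate 3 was dropped (adjusted p = 0.0549 to 0.0654). RFNR1 failed when any library but day 12 replicate 2 was dropped (adjusted p = 0.0612 to 0.131) and by DESeq2 (adjusted p = 0.0635). On log2(TPM + 1) RFNR1 (adjusted p = 0.615) and CIPK23 (adjusted p = 0.205) failed.

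The NRT2 genes of nitrate uptake that NIGT1 proteins are known to repress were nearly silent on each day. NRT2.1 (AT1G08090), the main high-affinity nitrate transporter gene of roots, had 0 counts in all 6 libraries, which allows up to 0.269 to 0.635 CPM in a library. NRT2.2 (AT1G08100) had 1 count over the 6 libraries. NRT2.4 (AT5G60770) had 0, 3 and 3 counts on day 7 and 6, 0 and 4 counts on day 12. NRT2.5 (AT1G12940), the transporter gene of long nitrogen starvation, had 2, 2 and 6 counts on day 7 and 12, 14 and 8 counts on day 12 (log2 change 1.88 ± 0.58, adjusted p = 0.0420). NRT2.5 passed the count filter only through its day 12 libraries. Of 9 uptake genes 4 could be tested; 2 rose, the other being the ammonium transporter gene AMT1;3 (AT3G24300, 1.17 ± 0.34, adjusted p = 0.0377), and 0 fell, beside 12.7% higher and 12.5% lower over all genes tested. NRT3.1 (AT5G50200) stood at 6.86 ± 0.54 and 5.65 ± 2.14 CPM and did not pass (adjusted p = 0.456). AMT1;1 (AT4G13510), at 23.6 ± 5.43 and 20.9 ± 3.19 CPM, did not pass either (adjusted p = 0.508). NRT2.5 failed when any library but day 7 replicate 3 was dropped (adjusted p = 0.0912 to 0.147), by DESeq2 (adjusted p = 0.0886) and with no count filter (adjusted p = 0.0701). AMT1;3 failed when replicate 1 or 3 of either day was dropped (adjusted p = 0.0886 to 0.118) with the block (adjusted p = 0.0547), by limma-voom (adjusted p = 0.0560) and on log2(TPM + 1) (adjusted p = 0.0665).

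Of 10 phosphate signalling and transport genes 7 rose and 0 fell, beside 12.7% higher and 12.5% lower over all genes tested, with a median log2 change of 1.55. This list was chosen with earlier results of these data known, so the count is a description. With day 7 replicate 2 dropped 4 rose, as SPX3, PHO1 and IPS1 failed. The SPX genes, whose products bind PHR1 when phosphate is ample and which NIGT1 proteins are known to repress, did not move alike. SPX1 (AT5G20150) rose from 83.3 ± 37.8 to 529 ± 153 CPM (log2 change 2.67 ± 0.42, adjusted p = 0.0106) and SPX2 (AT2G26660) from 22.4 ± 5.27 to 47.5 ± 5.51 CPM (1.08 ± 0.17, adjusted p = 0.00362). SPX3 (AT2G45130) had 0, 17 and 24 counts on day 7 and 262, 802 and 113 counts on day 12 (4.86 ± 0.89, adjusted p = 0.0180, and 0.0811 with day 7 replicate 2 dropped). SPX4 (AT5G15330) stood at 8.001 ± 0.70 and 8.31 ± 0.15 CPM and did not pass (adjusted p = 0.851). PHO2 (AT2G33770), whose product marks phosphate transport proteins for degradation, rose from 192 ± 21.9 to 768 ± 169 CPM (2.00 ± 0.17, adjusted p = 0.00141). PHT1;4 (AT2G38940), a phosphate transporter gene, rose from 24.3 ± 4.17 to 140 ± 40.6 CPM (2.53 ± 0.24, adjusted p = 0.00180). The calls of SPX1, SPX2, PHO2 and PHT1;4 held whichever library was dropped. With the replicate block 6 genes of the list rose, without PHO1.

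For HHO4 and HHO5, partners and targets were examined. JMJ30 (AT3G20810), the demethylase that acts with HHO4, rose from 42.1 ± 1.21 to 97.2 ± 11.4 CPM (log2 change 1.21 ± 0.11, adjusted p = 0.00141). The flowering gene FT (AT1G65480) had 7, 3 and 7 counts on day 7 and 5, 4 and 4 on day 12, too few to test. ULT1 (AT4G28190), the partner of HHO5, fell by 0.49 ± 0.13 (adjusted p = 0.0284), a call that ended when any day 7 library or day 12 replicate 2 was dropped (adjusted p = 0.0541 to 0.0902) and on log2(TPM + 1) (adjusted p = 0.429). The floral repressor gene SVP (AT2G22540) stood at 38.0 ± 5.88 and 49.2 ± 5.46 CPM (adjusted p = 0.0766, and 0.0246 with the block). WUS (AT2G17950), the shoot meristem gene, had 0 counts in every library. In all, 3 of the 10 listed genes could be tested, with 1 higher and 1 lower, too few to set against the 25.1% of all tested genes that passed.

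**Figure D5:**
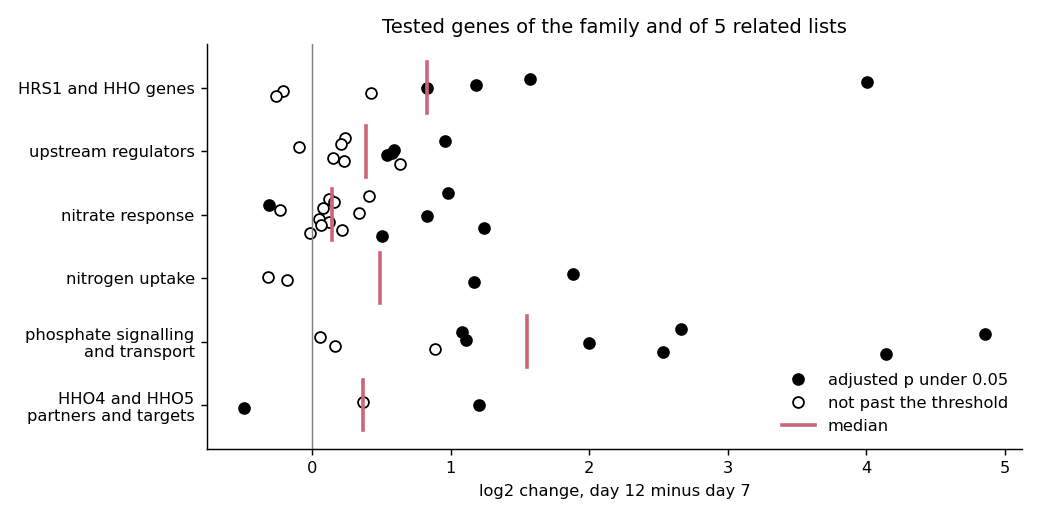
Log2 change, day 12 minus day 7 (x axis), of the 7 members and of the tested genes of 5 related lists (rows), with filled points for an adjusted p under 0.05 and red lines for medians. The family median is 0.83, that of the phosphate list 1.55 and that of the nitrate response list 0.14.

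Over all 18364 genes tested 4616 (25.1%) passed, 2324 (12.7%) higher and 2292 (12.5%) lower on day 12. On log2(TPM + 1) 796 were higher and 284 lower. The marker counts below stand beside these shares. Of the callus markers PLT1, PLT2, PLT3, PLT7, WOX5, WOX11, SCR, LBD16 and LBD18 passed the count filter, and LBD17 and LBD29 did not. That shows detection only, since no tissue other than callus was analysed here. Of the 9 that passed the filter 1 rose and 3 fell, and PLT1 also passed with the replicate block (adjusted p = 0.0406). LBD29 had 24, 20 and 7 counts on day 7 and 3, 1 and 0 counts on day 12. The calls of WOX11 (higher) and of LBD16, PLT3 and SCR (lower) all failed when day 7 replicate 1 was dropped. Leaf mesophyll markers moved with the days, as 7 of 8 fell. The call of RBCS1A failed when day 12 replicate 2 was dropped (adjusted p = 0.0640). That of RCA failed without day 7 replicate 2, day 12 replicate 2 or day 12 replicate 3 (adjusted p = 0.0535 to 0.0693), and on log2(TPM + 1). LHCB1.1, LHCB2.1 and RBCS3B passed the count filter only through day 7. The summed TPM of the leaf markers was 161 to 177 on day 7 and 59.1 to 104 on day 12. Endodermis markers moved the other way: their summed TPM was 11.0 to 21.2 on day 7 and 38.4 to 43.3 on day 12, 2 of 3 tested genes rose (MYB36 and ESB1, which both failed when replicate 1 of either day or day 12 replicate 3 was dropped), and CASP1 and CASP2 had 0 counts on day 7 and CASP5 in every library. Of 8 xylem and phloem markers 0 passed in edgeR (2 at an unadjusted p under 0.05, 1 by DESeq2 and 0 by limma-voom), with summed TPM of 122 to 197 and 88.7 to 176. With the block IRX3 was higher (adjusted p = 0.0118) and XCP1 lower (adjusted p = 0.0235). The part of these cell types in the values of the 7 genes was not tested, and in bulk tissue fewer cells of a type cannot be told apart from less RNA per cell.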

How the data were processed

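Per the labels' protocols, total RNA from callus was made into TruSeq libraries. The authors deposited whole-number counts and TPM values for 36793 loci in 6 libraries. Build TAIR10 and the tools RSEM 1.3.1 and STAR 2.7.10a are named in the submitters' processing notes; which tool made which table, strand and multi-mapping settings are not given in the sources used here. The members share exact runs of at most 31 bases, and no annotated gene overlaps them.

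Counts were filtered with filterByExpr, normalised by TMM (factors 0.960 to 1.04) and fitted by day alone in edgeR 4.0.16 (robust quasi-likelihood; R 4.3.3), with Benjamini-Hochberg adjustment over 18364 genes at 0.05. Each SE was obtained as the log2 change over the square root of F. Alternatives used DESeq2 1.42.0, limma 3.58.1 and the other settings described with the results. Same-numbered libraries deviated together across genes (correlations of 0.15, 0.15 and 0.25), so results blocked on that number are given where a call changes; the labels do not say what the number marks.

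The members, and the 9 lists beside them, were chosen with earlier results of these data known. Of 95 list genes 92 carried the same name in the RefSeq TAIR10.1 table and were kept; HHO names are those of the family rule. The value of 1 marker gene is not reported here. The genes named were, per list, the 4 (or fewer) calls with the smallest adjusted p plus the leading call of opposite sign. NRT2.1, NRT2.2, NRT2.4, NRT3.1, AMT1;1, PHR1, NRT1.1, NIA2, NLP1, NLP4, NLP5, SPX3, SPX4, PHO1, IPS1, NLA, PHT1;1, FT, SVP, WUS and single marker genes were added after their values were seen. Upstream sequences were read with that assembly's own annotation and coordinates, which were not combined with TAIR10 positions.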

Additional observations from a re-analysis of the deposited data

How the results depend on the processing

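Leaving out 1 library gave 2529 to 4342 genes called, 2 to 4 members, 11 to 16 list genes (20 with all libraries) and 5 to 7 members at the same place in the order of TPM averaged over both days; with day 12 replicate 2 left out HHO6 stood above HHO2 in that order, while HHO2 remained above HHO6 in each other day 12 library. On log2(TPM + 1) 1080 genes and 10 list genes were called, on log2(TPM + 0.1) 1083 and 10, and on log2(TPM + 1) without a filter 371 genes, 6 list genes and 1 member, HHO1. After TPM was rescaled without rRNA loci 13 list genes were called. HHO4, never called, changed sign in these 4 fits (0.0196, 0.0694, 0.0196 and 0.00966). With the replicate block 5167 genes, 5 members and 21 list genes were called, and PHO1 lost its call (adjusted p = 0.0510). HRS1 also lost its call with library sizes alone (log2 change 1.53). Of the 14 genes of nearest pattern 7 were named on log2(TPM + 1). The cause of these changes was not tested. Depth limits HHO1, HHO4 and HRS1 most, with 9, 69 and 90 counts over the day 7 libraries.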

Other observations

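The palindrome found upstream of the NIGT1 genes was looked up before all other tested genes, a comparison chosen after seeing the data and given as values only. Of 512 tested genes outside the family with GAATATTC within 1000 bases of their start, 93 (18.2%) were higher on day 12 and 51 (9.96%) lower, beside 12.7% and 12.5% of all genes tested. Of 3632 genes with GNATATNC there, 532 (14.6%) were higher and 404 (11.1%) lower, and of 15713 genes with GAATC 12.2% were higher and 12.9% lower. In the lists, GNATATNC lay within 1000 bases of 7 of 10 phosphate genes, 1 of 16 nitrate response genes and 4 of 8 xylem and phloem markers, beside 20.3% of all windows. Of the 7, SPX1, SPX3, PHO2 and IPS1 rose and SPX4, NLA and PHT1;1 did not pass, while SPX2, PHT1;4 and PHO1, which rose, held no match. NRT2.4 held GAATATTC within 250 bases, and SPX1 and NLP1 within 1000.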
